A study of Mus musculus with 78 samples.

Results

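The 67 genes described here code for mouse splicing factors. The rule that picks them uses gene symbols and no expression value: they are the protein-coding genes whose symbol begins with Srsf, Sf3a, Sf3b, U2af, Snrp, Prpf or Hnrnp, with Snrpn left out, and with values they are 67 of the 13604 genes listed in the gene tables of both the 4-cell and the 8-cell stage. The rule finds 68 coding genes in the annotation, and 1 of them, Srsf12, is listed in neither table. By family they are 10 SR protein genes (Srsf), 3 U2AF genes, 9 SF3a and SF3b genes, 11 genes of Sm and other snRNP proteins (Snrp), 13 PRPF genes and 21 hnRNP genes. Hnrnpa1l2-ps2, whose symbol marks it as a pseudogene, is annotated as protein-coding and was kept.

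Introns are removed from a pre-mRNA by the spliceosome, which is built anew on each intron from small nuclear RNAs packed with proteins (snRNPs). The Sm proteins form a ring around most of these RNAs. The U1 snRNP recognises the 5′ splice site, U2AF binds the 3′ splice site, and SF3a and SF3b are parts of the U2 snRNP that hold it on the branch point. PRPF proteins act mainly in the tri-snRNP and in the later remodelling of the complex. SR proteins mostly help exons to be recognised, and hnRNPs bind pre-mRNA and often act against SR proteins. In the cleavage embryo, RNA and protein left by the oocyte are replaced by products of the embryo's own genome.

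All blastomeres came from embryos of a cross between a stock with the allele Gt(ROSA)26Sortm1(CAG-Brainbow2.1)Cle and a stock with the transgene Tg(CAG-cre/Esr1*)5Amc, so that every embryo of either stage carried a Brainbow cassette and a Cre that 4-hydroxytamoxifen activates. The embryos were collected at 46 hpi (hours after the second hormone injection) as 2-cell embryos, exposed to 4-hydroxytamoxifen and cultured in KSOM medium to the 4-cell or 8-cell stage, and each blastomere was made into its own Smart-seq2 library. The values are FPKM, fragment counts scaled to transcript length and to the depth of the library, which allow levels of different genes to be set side by side. The tables hold 24 blastomeres at the 4-cell stage and 26 at the 8-cell stage. No column name matches an embryo or a lineage, and columns were not assigned by their order or depth. Each stage is therefore treated as 1 sample. By the labels the 4-cell blastomeres come from at most 9 embryos, of which 6 carry a lineage label, and the 8-cell ones from 4. The paper kept 50 blastomeres of traced lineage for its analyses, as many as the tables hold. Blastomeres of a stage thus share embryos and are not independent, and the stage comparison has no replicate check and no test. A gene was called higher or lower where the medians of log2(FPKM + 1) differed by at least 1, which is 2-fold on that scale, and all stage differences are 8-cell minus 4-cell. In the FPKM of single cells, less RNA of a gene and more RNA of other genes cannot be told apart.

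Depth and cell identity were read from the same tables. The FPKM denominator, estimated from the lowest values, was 6870000 to 16900000 fragments (median 13400000) in the 4-cell and 2340000 to 21700000 fragments (median 17200000) in the 8-cell blastomeres. In 3 blastomeres the number of genes above FPKM 1 was under 0.6 times the median of the stage: 2 at the 4-cell stage, with 3009 and 3699 such genes against a median of 7155, and 1 at the 8-cell stage, with 3548 against 6773. These are called gene-poor below, and the gene-poor 8-cell blastomere is also the one with 2340000 fragments. Of 10 oocyte and cleavage-stage markers some were abundant and others near absent. Dppa3 reached 1303 to 4901 FPKM at the 4-cell stage and 2474 to 10167 at the 8-cell stage, and Pou5f1 had medians of 41.5 and 110. The oocyte genes Khdc3 (medians 101 and 443), Zp3 (83.2 and 45.6) and Npm2 (31 and 14.7) were expressed at both stages. Nlrp5 (medians 5.06 and 0.122), Gdf9 (4.39 and 0), Ooep (0.645 and 0), Tcl1 (0.303 and 0) and Bmp15 (0.164 and 0) were low. Of the 3 cumulus cell genes listed in both tables, Amh and Has2 had a median of 0 at both stages, while Nr5a2, which the embryo also expresses, had medians of 44 and 34.8.

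The authors counted only reads that aligned to one place in the genome, so a member whose mRNA is repeated letter for letter elsewhere can lose reads. For each member, the share of 100-base windows of its mRNA (100 bases is the read length) that occur at another place of GRCm38.p6 was counted. It was 78.7% for Hnrnpa3, 78.5% for Hnrnpa1, 68.9% for U2af1, 68.4% for Snrpg, 66.7% for Hnrnpf and 50.1% for Sf3b4. It was 1.44% for Srsf2 and 0% for Sf3b3. The 3 sequences below, read from that assembly, show the pattern: each is 30 bases across a junction of adjacent exons, with the upstream exon in lower case and the downstream exon in capitals, and each is also found unbroken, with no intron, on another chromosome.
Hnrnpa3: cgccggggggaggagGGCCATGATCCAAAG
Hnrnpa1: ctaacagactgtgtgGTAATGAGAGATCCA
U2af1: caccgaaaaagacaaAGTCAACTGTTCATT
The Hnrnpa3 junction joins chr2 positions 75659389 and 75661466 (+ strand), and its unbroken copy lies at chr4:12232890-12232919 on the + strand. The Hnrnpa1 junction joins chr15 positions 103241196 and 103241446 (+ strand), with a copy at chr9:123690046-123690075 on the - strand. The U2af1 junction joins chr17 positions 31655066 and 31658653 (- strand), with a copy at chr7:99945091-99945120 on the + strand. Other members share exon bases with a neighbouring gene: 84.5% of the exon bases of Snrpf lie on 4933408J17Rik or Ccdc38, 61% of those of Hnrnph3 on Rufy2, 43.9% of those of Srsf4 on Gm12992 and 10.2% of those of U2af1l4 on Psenen. The levels of these members are uncertain, and the part of copies and overlaps in any level was not tested.

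Splicing factor transcripts were among the well-represented mRNAs of both stages. The median FPKM was above 1 for 62 members (92.5%) at the 4-cell stage and for 65 (97%) at the 8-cell stage, against 49.7% and 45.8% of all listed genes. It was at least 100 for 24 members (35.8%) and 28 members (41.8%), against 7.12% and 6.92% of all genes. The median over the members' medians was 43.1 FPKM at the 4-cell stage and 63.5 at the 8-cell stage. Above FPKM 1 in every blastomere of the stage were 29 members at the 4-cell stage and 40 at the 8-cell stage, and without the gene-poor blastomeres the numbers were 40 and 42. The share of all genes above FPKM 1 in every blastomere was not counted, so these numbers have no background beside them. Members with a median of 0 were Hnrnpul1, Prpf40b and Srsf4 at the 4-cell stage and Prpf40b at the 8-cell stage.

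As a group, the members took a narrow share of the messages of each blastomere. Their summed FPKM was 1.37% to 1.68% (median 1.51%) of all listed FPKM at the 4-cell stage and 1.42% to 1.94% (median 1.59%) at the 8-cell stage, and the ranges overlap. A 4-cell blastomere had 44 to 65 members above FPKM 1 (median 61), and an 8-cell blastomere 52 to 66 (median 62). The gene-poor blastomeres had fewer members above 1, namely 44 and 50 at the 4-cell stage and 53 at the 8-cell stage, while their summed share, 1.45% and 1.5% at the 4-cell stage and 1.61% at the 8-cell stage, lay inside the range of the others. In deposited FPKM the members summed to 3999 and 4464 in the gene-poor 4-cell blastomeres, under the 5759 to 7928 of the other 22, and to 7551 in the gene-poor 8-cell blastomere, inside the 5622 to 8077 of the other 25.

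**Figure D1:**
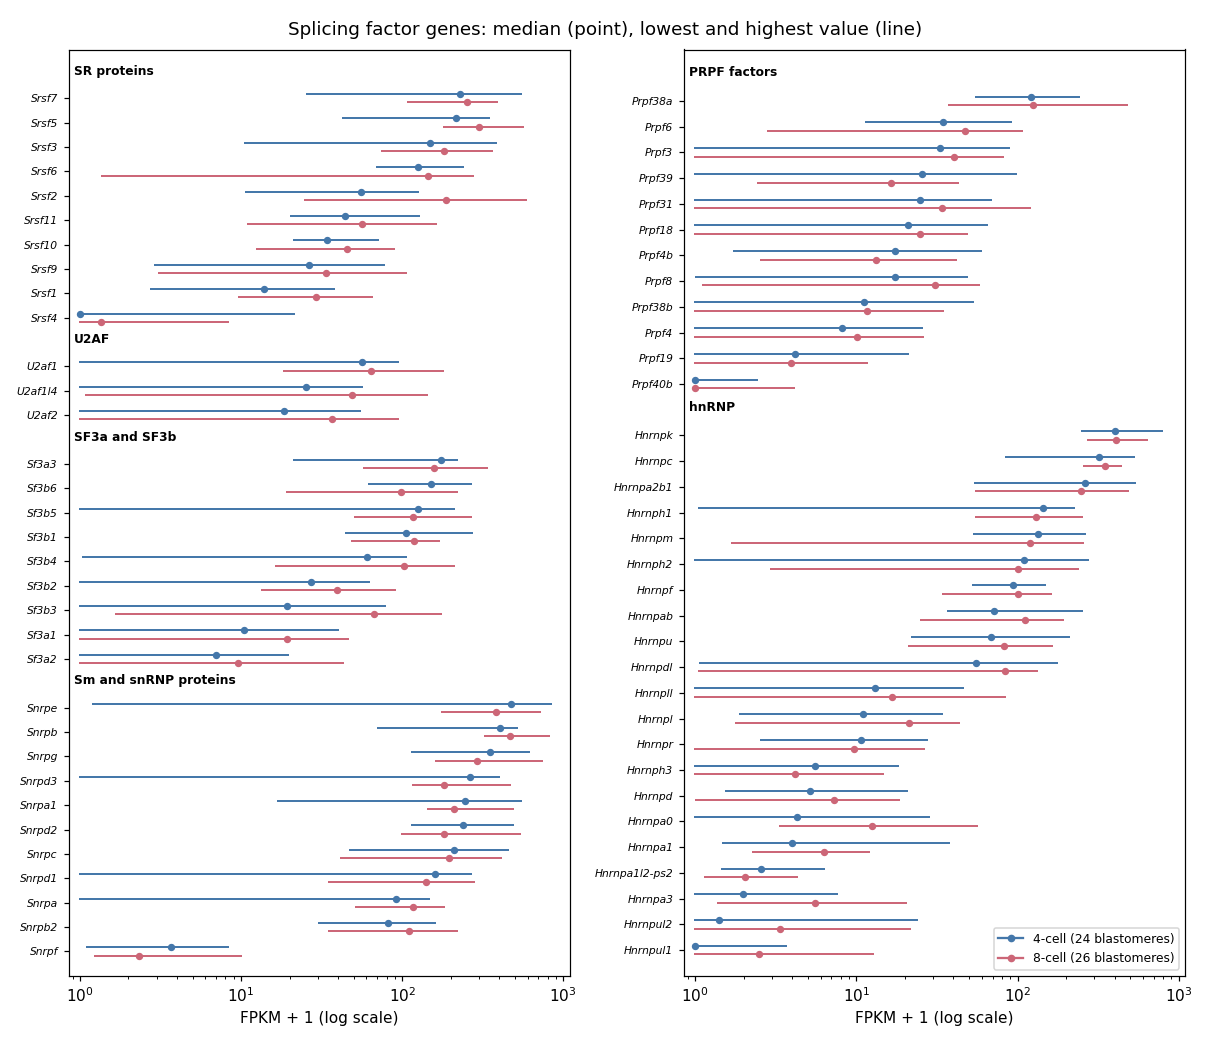
FPKM of 66 of the 67 splicing factor genes, grouped by role and plotted as FPKM + 1 on a log axis; points are medians and lines run from the lowest to the highest of 24 4-cell (blue) or 26 8-cell (red) blastomeres. Most Sm and snRNP genes lie above 100, Snrpf lies near the bottom, and the lines of the 2 stages overlap for every gene shown. Overlap over all genes was not counted.

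Across the stages, 7 of the 67 members were higher at the 8-cell stage and none was lower. The 7 are Sf3b3, Srsf2, Hnrnpa0, Hnrnpa3, Hnrnpul1, Hnrnpul2 and Srsf1. That is 10.4% of the members, where 5.17% of all 13604 genes were higher by the same rule, and 0% lower, where 9.67% of all genes were lower. Many listed genes are near 0 in both stages and cannot pass the rule, so the count was also taken over genes with a median of at least 1 in both stages. Of the 62 members in that set 4 were higher, Sf3b3, Srsf2, Hnrnpa0 and Srsf1, which is 6.45% beside 6.92% of all 5866 such genes. None of the 62 was lower, beside 9.21% of those genes. In that set the share of higher members is near the background, but the filter itself depends on the change. It leaves out Hnrnpa3, Hnrnpul1 and Hnrnpul2, whose medians were under 1 only at the 4-cell stage. With a median of at least 1 in either stage, 65 members were kept and all 7 were among the higher. Hnrnpa3, Hnrnpul1 and Hnrnpul2 pass that filter only through the 8-cell stage, where they are higher. The share of all genes under it was not counted, so this count has no background beside it. The difference was above 0 for 44 members (65.7%) and below 0 for 22, with a median of 0.25, beside 26.8% above 0 and a median of 0.00 over all 13604 genes. Of the 62 members 40 (64.5%) lay above 0, with a median of 0.21, beside 47.9% and -0.04 over the 5866 genes. For no member did the values of the stages lie apart, and for how many of all genes they do was not counted.

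**Figure D2:**
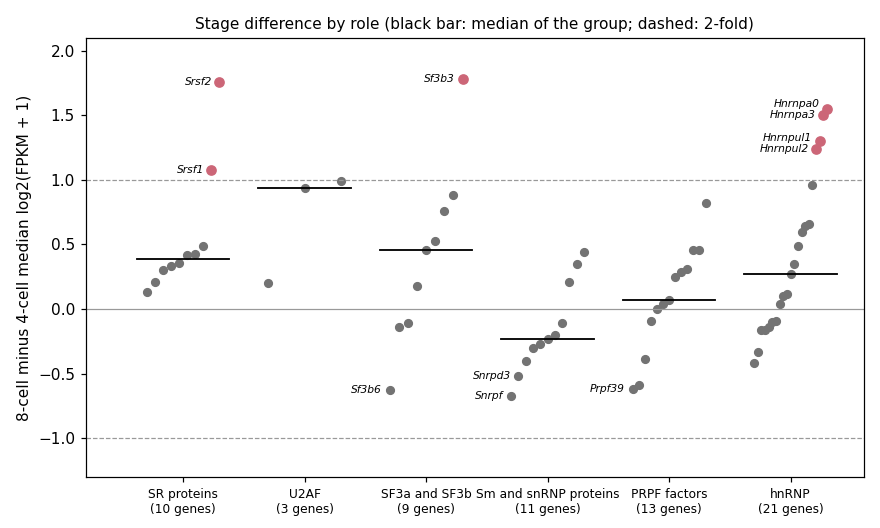
Stage difference of each member, as the 8-cell minus the 4-cell median of log2(FPKM + 1), by role; red points pass the 2-fold rule (dashed lines), black bars are the medians of the role groups. All 10 SR protein genes lie above 0 (9 with means in place of medians), and 8 of the 11 Sm and snRNP genes lie below 0 (7 with means).

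SR proteins bind exonic enhancers and recruit the early spliceosome. All 10 of their genes had a higher median at the 8-cell stage, with differences of 0.13 to 1.76 and a median of 0.39, but with means in place of medians 9 did and Srsf6 was at -0.26 and Srsf10 at 0.03. Srsf6 also turned without the 8-cell columns named NA. Of all 5866 genes with a median of at least 1 in both stages 47.9% lay above 0. The 2-fold rule was passed by 2 of the 10 (20%), beside 5.17% of all genes, and by 2 of the 9 with a median of at least 1 in both stages (22.2%), beside 6.92%. Srsf2 (SC35, known for marking nuclear speckles; chr11:116849897-116853675, - strand, GRCm38.p6) ranged from 9.73 to 124 FPKM with a median of 54.2 at the 4-cell stage. At the 8-cell stage it ranged from 23.9 to 584 with a median of 186, a difference of 1.76. Of the 26 8-cell blastomeres 20 lay above the highest 4-cell value, and 23 above the 4-cell median. The highest value, 584, was that of the gene-poor blastomere, and without the 3 gene-poor blastomeres the difference was 1.73. Within the 8-cell stage Srsf2 was higher where fewer genes were above FPKM 1. Spearman's rho was -0.68 and Pearson's r -0.67 over 26 blastomeres, and r was -0.55 without the 2 blastomeres farthest from the median gene number. At the 4-cell stage rho was 0.08 over 24. Both measures come from the same library, and blastomeres of an embryo are not independent and were not told apart. The lowest 8-cell gene numbers, 3548 to 5391, were those of blastomeres in adjacent columns, and whether these share an embryo is not known. Whether gene number plays a part in the level of Srsf2 was not tested.

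Srsf1 (SF2/ASF, the founding SR protein; chr11:88046499-88053757, + strand) ranged from 1.75 to 36.9 FPKM with a median of 12.8 at the 4-cell stage. It ranged from 8.67 to 64 with a median of 28.2 at the 8-cell stage, a difference of 1.08. Thus 23 of 26 8-cell blastomeres exceeded the 4-cell median, 9 exceeded the highest 4-cell value, and the ranges overlap. The 3 SR genes with the highest medians at the 4-cell stage had smaller differences. Srsf7 had medians of 229 and 251 FPKM (difference 0.13), Srsf5 of 215 and 300 (0.49), and Srsf3 of 147 and 180 (0.30). Srsf3 and Srsf7 are close relatives that link splicing with mRNA export, and Srsf7 had the higher median in both stages. For Srsf5, 24 of 26 8-cell blastomeres exceeded the 4-cell median. The remaining SR genes, Srsf6, Srsf9, Srsf10 and Srsf11, had differences of 0.21 to 0.42, from medians of 25.5 to 124 at the 4-cell stage. Srsf4 was the lowest, listed at 0 in the median 4-cell blastomere and at 0.354 in the median 8-cell blastomere. It was above 1 in 8 of 24 and 11 of 26, and it passed the 2-fold rule only with a pseudocount of 0.1.

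U2AF recognises the 3′ splice site as a dimer. U2af2 codes for the large subunit, which binds the polypyrimidine tract, and U2af1 for the small subunit, which reads the AG. U2af2 ranged from 0 to 53.4 FPKM with a median of 17.6 at the 4-cell stage, and from 0 to 92.6 with a median of 35.8 at the 8-cell stage. Its difference of 0.99 was just under the 2-fold rule. It passed with means (1.10), without the columns named NA (1.07), with a pseudocount of 0.1 and after centring (1.02 each). The lowest difference of U2af2 over the alternatives was 0.82, and 24 of 26 8-cell blastomeres exceeded the 4-cell median. U2af1l4, a relative of the small subunit, ranged from 0 to 55.1 with a median of 24.4 and from 0.0928 to 142 with a median of 47.8, a difference of 0.94, or 1.26 and past the rule with means. U2af1 itself had medians of 55.5 and 63.5, a difference of 0.20, or 0.41 with means. It was the highest of the 3 genes in both stages although 68.9% of its windows have a copy elsewhere.

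SF3b clamps the branch point and SF3a joins it to the rest of the U2 snRNP. Within this one complex the genes differed in direction, 6 above 0 and 3 below (8 and 1 with means, where Sf3a3 and Sf3b5 turned), with a median difference of 0.46. Sf3b3 (chr8:110810491-110846806, - strand), which codes for a large scaffold subunit next to Sf3b1, ranged from 0 to 77.8 FPKM with a median of 18.4 at the 4-cell stage. At the 8-cell stage it ranged from 0.676 to 173 with a median of 65.6. The difference was 1.78, or 1.47 without the columns named NA, and 24 of 26 8-cell blastomeres exceeded the 4-cell median. It was listed at 0 in 4 of the 24 4-cell blastomeres. At the other end, Sf3b6, whose small protein contacts the branch-point adenosine, ranged from 61.5 to 265 with a median of 151 and then from 18.3 to 217 with a median of 97.1. Its difference was -0.63, under the 2-fold rule, and 1 of 26 8-cell blastomeres exceeded the 4-cell median. Sf3b1, the core of SF3b, had medians of 104 and 118 (0.18).

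The other SF3 genes also differed from one another in level. Sf3b4 went from a median of 59.8 to 102 (difference 0.76), and Sf3b2 from 26.1 to 38.2 (0.53). Sf3b5 had medians of 124 and 115 (-0.11). Among the SF3a genes, Sf3a3 stood far above its partners in both stages, with medians of 172 and 156. Sf3a1 had 9.5 and 18.4 (difference 0.88), and Sf3a2 had 6 and 8.63 (0.46, or 1.05 and past the rule with means). Sf3a2 was the lowest of the 9.

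Sm and snRNP protein genes were the most abundant group at the 4-cell stage, with a median of 239 FPKM over their medians, and 182 at the 8-cell stage. Of the 11 genes 8 had a lower and 3 a higher median at the 8-cell stage, the median difference was -0.23, and none passed the 2-fold rule. With means 7 were lower and 4 higher with a median of -0.05, Snrpe turned to 0.02, and Snrpd3 and Snrpd1 were at -0.05 and -0.04. The Sm ring is built from the products of Snrpb, Snrpd1, Snrpd2, Snrpd3, Snrpe, Snrpf and Snrpg. Snrpe ranged from 0.212 to 833 with a median of 472 at the 4-cell stage and from 176 to 718 with a median of 383 at the 8-cell stage (difference -0.30). Snrpg had medians of 351 and 291 (-0.27), Snrpd3 of 262 and 182 (-0.52), Snrpd2 of 239 and 180 (-0.40), and Snrpd1 of 160 and 139 (-0.20). Snrpb went the other way, from 404 to 469 (0.21). For Snrpd3, 4 of 26 8-cell blastomeres exceeded the 4-cell median.

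Snrpf stood apart from the ring it belongs to. Its values were 0.0984 to 7.25 FPKM with a median of 2.67 at the 4-cell stage, and 0.235 to 9.04 with a median of 1.31 at the 8-cell stage, while the other 6 ring genes had medians of 139 to 472. The median fragments behind these values were 28 and 17. Its difference was -0.67, the lowest of all members by medians, and -0.28 with means, where Sf3b6 was at -0.73. As given above, 84.5% of its exon bases lie on other genes and 18.9% of its windows have a copy elsewhere, and how reads on shared exons were counted is not given in the sources used here. Of the genes specific to the U1 and U2 snRNPs, Snrpa and Snrpc code for U1 proteins, and Snrpa1 and Snrpb2 for U2 proteins. Snrpa1 had medians of 244 and 208 (-0.23) and Snrpc of 209 and 193 (-0.11). Snrpa, of U1, and its close relative Snrpb2, of U2, were both higher at the 8-cell stage, with medians of 90.4 and 116 (0.35) and of 81.1 and 110 (0.44).

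PRPF genes spread around 0, with 8 above, 4 below and 1 at 0, a median difference of 0.07 and none past the rule. With means 6 were above and 7 below, and the median was -0.07. Prpf8, the largest core protein, which cradles the catalytic centre, had medians of 16.3 and 29.7 FPKM, and its difference of 0.82 was the highest of the group. Of the 26 8-cell blastomeres 23 exceeded its 4-cell median. The tri-snRNP genes Prpf6, Prpf31, Prpf3 and Prpf4 were also higher in the median at the 8-cell stage, by 0.46, 0.46, 0.29 and 0.31, and with means by 0.76 for Prpf31 and 0.56 for Prpf3, but that of Prpf4 was -0.28 with means and also turned without the columns named NA. Prpf39, a factor linked to the U1 snRNP, had medians of 24.4 and 15.5 (-0.62, or -0.36 with means). Prpf40b was above FPKM 1 in 1 blastomere of each stage and listed at 0 in the median. Prpf38a had medians of 120 and 123, and its relative Prpf38b of 10.2 and 10.7, and both differences turned with means, to -0.07 and -0.38. Prpf19, the ubiquitin ligase of the complex named after it, had 3.15 and 2.93 (-0.09, or -0.65 with means). Its difference turned above 0, to 0.08 at most, without the columns named NA and without the gene-poor blastomeres. The second-step factor Prpf18 had 19.8 and 23.8, and the kinase gene Prpf4b had 16.4 and 12.3.

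The medians of the hnRNP genes ran from 0 to 399 FPKM at the 4-cell stage. Their 8-cell medians ran from 1.04 to 409. Hnrnpk, which binds poly(C) stretches, had medians of 399 and 409 FPKM (difference 0.04). Hnrnpc, which binds uridine tracts, had 321 and 349 (0.12). Hnrnpa2b1 had 262 and 246 (-0.09). Of the 21 genes 14 lay above 0 and 7 below, with a median of 0.27 (16 and 5, and 0.17, with means, and 17 and 4, and 0.26, without the columns named NA), and 4 passed the 2-fold rule, all of them from medians under 4 FPKM at the 4-cell stage. That is 19%, beside 5.17% of all genes. Of the 18 with a median of at least 1 in both stages 1 passed (5.56%), beside 6.92%. That filter leaves out Hnrnpa3, Hnrnpul1 and Hnrnpul2 for their 4-cell medians under 1. With a median of at least 1 in either stage all 21 genes were kept, these 3 only through the 8-cell stage. The share of all genes under that filter was not counted. Hnrnph1 and its X-linked relative Hnrnph2 had medians of 142 and 129 (-0.14) and of 108 and 100 (-0.10), and both turned with means, to 0.37 and 0.67. Hnrnpa2b1 turned as well, to 0.02. Hnrnpab, Hnrnpdl and Hnrnpd were higher in the median at the 8-cell stage, by 0.64, 0.60 and 0.49, and that of Hnrnpab was 0.23 with means. Hnrnpf, Hnrnpm and Hnrnpr differed by 0.10, -0.16 and -0.16, where Hnrnpm turned to 0.08 without the columns named NA and Hnrnpr to 0.04 without the gene-poor blastomeres, and Hnrnpa1l2-ps2, at medians of 1.56 and 1.04, by -0.33.

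Hnrnpa0 (chr13:58125879-58128556, - strand), an intronless gene that binds AU-rich elements, ranged from 0 to 27.4 FPKM with a median of 3.27 at the 4-cell stage. It ranged from 2.37 to 54.7 with a median of 11.5 at the 8-cell stage, a difference of 1.55, and 25 of 26 8-cell blastomeres exceeded the 4-cell median. Within the 8-cell stage it too was higher where fewer genes were above FPKM 1, with a rho of -0.59 and an r of -0.72 over 26 blastomeres, and an r of -0.54 without the 2 farthest. Members ran both ways: of the 53 with a median of at least 10 at the 8-cell stage, rho was below 0 for 26 and above 0 for 27, with a median of 0.03. On the side of Srsf2 and Hnrnpa0 were Snrpa1 (-0.50), Prpf38a (-0.47), Snrpd2 (-0.39) and Snrpb2 (-0.39), and on the other side were Srsf6 (0.72), Hnrnph1 (0.59) and Sf3b3 (0.40). Hnrnpa3 (chr2:75659105-75669407, + strand) ranged from 0 to 6.61 with a median of 0.976 and then from 0.387 to 19.3 with a median of 4.51, a difference of 1.5, or 2.33 without the 5 8-cell columns named NA. Of the 26 8-cell blastomeres 12 exceeded its highest 4-cell value. Its copies elsewhere, shown by the sequence above, cover 78.7% of its windows. Hnrnpa1, the best-known gene of this family, has copies elsewhere for 78.5% of its windows, while Hnrnpa0 has them for 0%. Hnrnpa1 had medians of 2.97 and 5.27 (difference 0.66, and 0.01 with means), below those of Hnrnpa2b1.

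Hnrnpul1 (chr7:25721161-25756268, - strand) and Hnrnpul2 (chr19:8819401-8834143, + strand), relatives of Hnrnpu, were at the lower edge of detection. Hnrnpul1 ranged from 0 to 2.66 with a median of 0 at the 4-cell stage and from 0 to 11.7 with a median of 1.47 at the 8-cell stage. It was above FPKM 1 in 8 of 24 and 16 of 26 blastomeres, and its difference was 1.3. Hnrnpul2 ranged from 0 to 22.9 with a median of 0.395 and then from 0 to 20.4 with a median of 2.35, a difference of 1.24. That of Hnrnpul2 is the least firm of the 7: it was 0.98 without the gene-poor blastomeres, 0.62 with means in place of medians and 0.73 without the 5 8-cell columns named NA, and it was 1.81 with every blastomere rescaled to the same summed FPKM and 2.28 with a pseudocount of 0.1. That of Hnrnpul1 was 0.88 with means, 2.20 after rescaling and 3.96 with a pseudocount of 0.1. Hnrnpu itself, a scaffold of nuclear RNA and chromatin, had medians of 67.1 and 81.3 (0.27). Hnrnpl, which binds CA repeats, had 9.93 and 20.1 (0.96, just under the rule, and past it after rescaling, at 1.09, and with a pseudocount of 0.1, at 1.02), and its relative Hnrnpll had 12.1 and 15.7 (0.35, which turned to -0.36 with means). Hnrnph3 had the lowest difference of the family, -0.42, with medians of 4.57 and 3.17, and 61% of its exon bases lie on Rufy2.

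**Figure D3:**
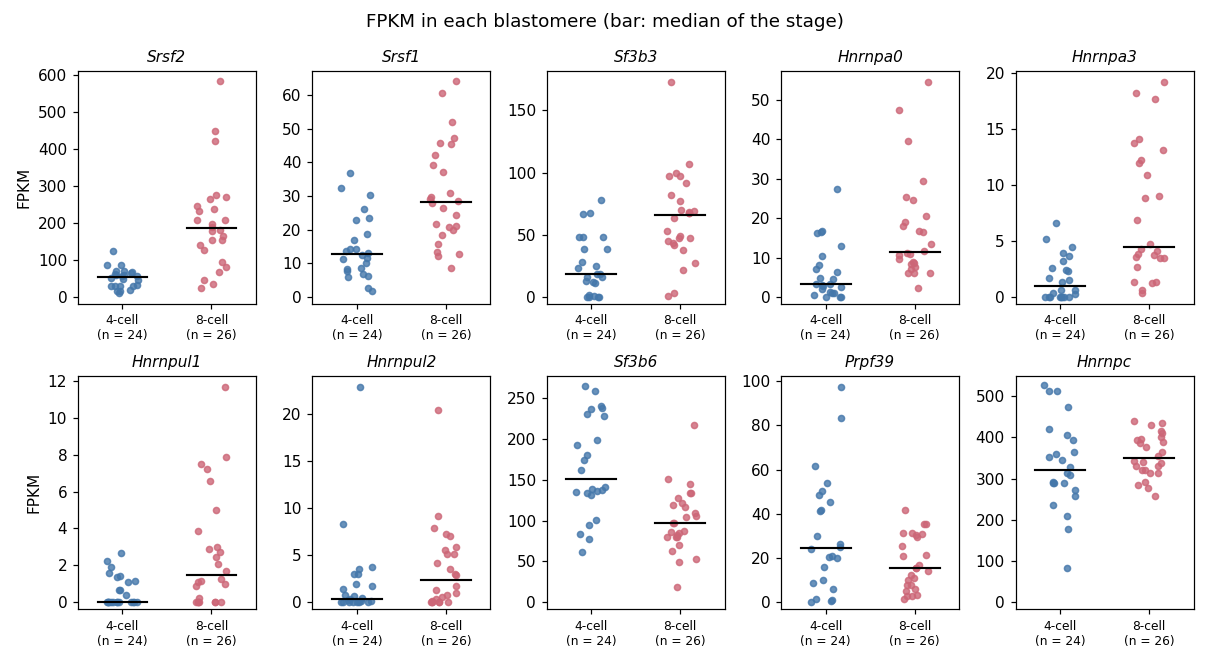
FPKM in each blastomere (one point each, spread sideways at random for legibility) of the 7 members past the 2-fold rule, of Sf3b6 and Prpf39, which had low differences, and of Hnrnpc; black bars are stage medians, with 24 4-cell and 26 8-cell blastomeres. Srsf2 has 20 of 26 8-cell points above its highest 4-cell point, and Hnrnpc narrows to 258 to 440 at the 8-cell stage.

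Members differed in how evenly the blastomeres of a stage carried them. Since low genes scatter more, the coefficient of variation (CV, SD over mean between blastomeres) was set against the median CV of all genes in the same band of median FPKM, which was 1.14 for 1 to 10, 0.714 for 10 to 100 and 0.395 above 100 at the 4-cell stage, and 1.15, 0.702 and 0.358 at the 8-cell stage. Of the 62 members with a median of at least 1, 44 lay below the median of their band at the 4-cell stage, and 42 of 65 did at the 8-cell stage. Above 100 FPKM the counts were 15 of 24 and 11 of 28, so the most abundant members were below their band in the minority at the 8-cell stage.

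Among members with a median of at least 10, Snrpb (CV 0.249) and Hnrnpf (0.273) were among the most even at the 4-cell stage. At the 8-cell stage the most even were Hnrnpc (0.145), Hnrnpk (0.231) and Snrpb (0.238). Hnrnpc ranged only from 258 to 440 FPKM over 26 8-cell blastomeres, after 84 to 527 at the 4-cell stage. The 84 and the next lowest value, 179, were those of the gene-poor 4-cell blastomeres, and the lowest of the others was 210. The most uneven at the 4-cell stage were Prpf38b (0.976), Sf3b3 (0.915) and Prpf39 (0.853), and at the 8-cell stage Hnrnpll (1.12), Prpf38b (0.867) and Hnrnpa0 (0.777). Prpf38b was thus uneven in both stages. Srsf2 had a CV of 0.528 at the 4-cell stage, at the 18 percentile of its band. At the 8-cell stage its CV was 0.642, at the 97.9 percentile of a higher band, where CVs are lower. In the 8-cell band of 10 to 100 FPKM, Srsf11 with a CV of 0.648 was at the 39.9 percentile. The highest 8-cell value of Srsf2, 584 FPKM, was that of the gene-poor blastomere. Hnrnph2, an X-linked gene, was uneven for its level in both stages, with CVs of 0.787 and 0.593 at the 99 and 95.6 percentiles of its bands.

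**Figure D4:**
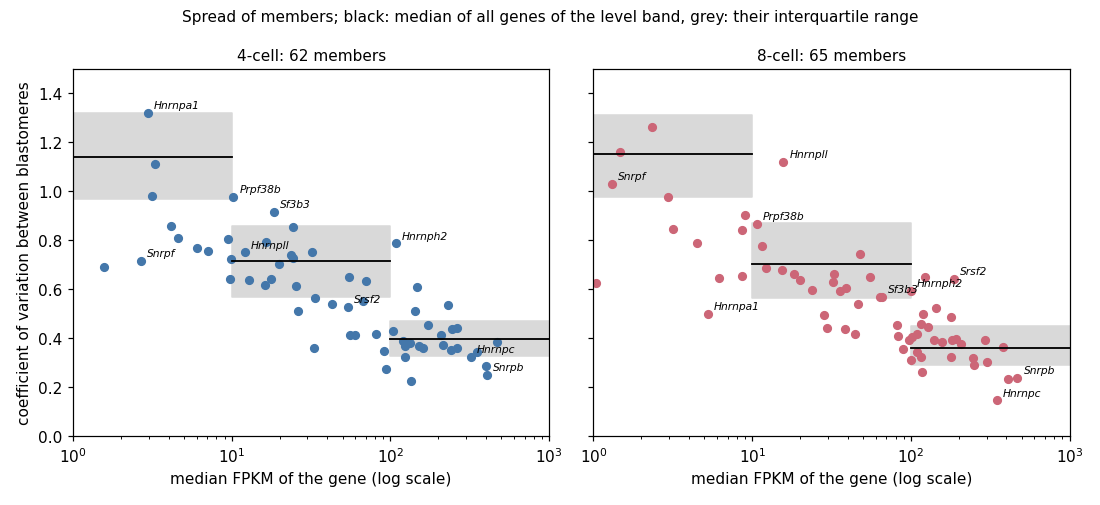
Coefficient of variation between blastomeres against the median FPKM (log axis) of each member with a median of at least 1, for 24 4-cell blastomeres (62 members) and 26 8-cell blastomeres (65 members); black lines and grey areas are the median and the interquartile range of all genes in the bands 1 to 10, 10 to 100 and above 100 FPKM. Hnrnpc at the 8-cell stage, with a CV of 0.145, is the most even member, and Hnrnpll and Srsf2 lie above the grey areas of their bands.

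Some values of abundant members were at or below FPKM 1 in single blastomeres. The share over all genes of that level was not counted, so the numbers below have no background beside them. Of the 24 members with a median of at least 100 at the 4-cell stage, 6 had a value at or below FPKM 1 in at least 1 blastomere, 8 of 576 values in all, and 5 of the 8 were in the 2 gene-poor blastomeres. Those 5 were 1 value each of Hnrnph1, Sf3b5, Snrpd1, Snrpd3 and Snrpe. The other 3 were of Hnrnph2, in blastomeres that were not gene-poor. They lie in adjacent columns, beside a blastomere at 5.42 FPKM, and the next lowest 4-cell value was 23.5. Whether these blastomeres share an embryo is not known. At the 8-cell stage 2 of 728 values were that low, 1 of Srsf6, in the gene-poor blastomere, and 1 of Hnrnpm.

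The other splicing genes were taken from lists of 122 genes, of which 120 had values in both stages. Among 78 spliceosome components and close partners 5 were higher, 2 were lower and the median difference was 0.04. The higher were Eftud2, the GTPase that works beside Prpf8 (medians 36.7 and 80.1 FPKM, difference 1.11), Txnl4b (12.3 and 28.3, 1.14), Sart3, which recycles snRNPs (1.74 and 8.04, 1.73), Bcas2, a partner of Prpf19 (85 and 186, 1.12), and the helicase Aqr (5.56 and 13.2, 1.12). The lower were Snrnp25, of the minor spliceosome (258 and 88.6, -1.53), and Rbm5 (49.1 and 22.2, -1.11). Among 8 kinases of SR proteins and their relatives, Clk2 was higher (2.18 and 9.66, 1.75), Srpk2 was lower (3.69 and 0.532, -1.62), and the median was -0.20. Among 14 snRNP assembly genes, Coil, the scaffold of Cajal bodies, was higher (2.16 and 8.55, 1.59) and Gemin6 of the SMN complex was lower (66.9 and 30.6, -1.11). Of 20 other regulators, Rbmx was higher (16.8 and 36.1, 1.07) and Esrp1, an epithelial splicing regulator, was lower (6.36 and 1.15, -1.81). Over all 120, 8 genes (6.67%) were higher and 5 (4.17%) were lower, beside the 5.17% and 9.67% of all genes. Of the 111 with a median of at least 1 in both stages, which leaves out Srpk2, 8 (7.21%) were higher and 4 (3.6%) lower, beside 6.92% and 9.21%.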

How the data were processed

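The authors aligned the reads to mm10 with STAR 2.5.1b, counted uniquely aligned reads on Refseq genes with HTSeq and deposited FPKM values, 1 gene table per stage. The gene lengths behind the FPKM are not given in the sources used here. Columns were assigned to a stage by their table, since no column name matches 1 sample. Entrez identifiers were named through RefSeq (GRCm38.p6), and 13590 of 13604 matched. FPKM values were used as deposited, with a pseudocount of 1. Denominators were estimated from the lowest 0.3 of the values, and at least 90.6% of the low values were whole fragments within 0.1. This step and the stage difference were tested on simulated data. For the stage difference the simulated blastomeres were independent, with no shared embryos and none gene-poor, and the planted differences exceeded the 2-fold rule. That simulation therefore does not show how the rule acts under those limits. Copies of mRNAs were located with minimap2 2.31-r1302. Members and lists were chosen with earlier results of these data known. Genes named are the 3 highest and the lowest of each role group, those past the 2-fold rule, the extremes of CV, members with a median of 0 in both stages, and pairs of relatives; others were named after their values were seen. The values of 1 member are not reported here. Alternatives were 0.1 as pseudocount, means, a filter on low genes, a fold of 1.5, rescaling, centring, an expressed threshold of 5, the SD of log values, and leaving out gene-poor, unnamed or single blastomeres. Python 3.11.15 and pandas 2.3.3 were used.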

Additional observations from a re-analysis of the deposited data

How the results depend on the processing

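With a fold of 1.5 in place of 2, 16 members were higher and 4 lower, with Prpf39, Sf3b6 and Snrpf among the 4. The share of all genes at a fold of 1.5 was not counted, so these numbers have no background beside them. With a pseudocount of 0.1, 10 members were higher, and the difference of Hnrnpul1 was 3.96. Under the other alternatives 6 to 8 members were higher at 2-fold and 0 lower, and Sf3b3, Srsf1, Srsf2, Hnrnpa0 and Hnrnpa3 were among the higher each time. Leaving out 1 blastomere at a time gave 6 to 9 higher and 0 lower, 43 to 45 members above 0, and a median difference of 0.21 to 0.27; Hnrnpul2 was the member of the 7 that did not pass each time. Over the other alternatives the median difference was 0.20 to 0.31. Rescaling each blastomere to the same summed FPKM moved the median of the 5866 genes from -0.04 to 0.02. The number of members below the CV of their band was 42 to 47 at the 4-cell and 41 to 48 at the 8-cell stage. The number above the level threshold was lowest, 55 and 58, at FPKM 5. No paired analysis was possible because no column carries an embryo or replicate number. Some members did run together in adjacent columns. Hnrnpa1 was 23.1 to 36.8 FPKM in 4-cell blastomeres 17 to 20 and at most 16.6 in the others. Sf3a3 was 20.4 to 40.0 in blastomeres 17 to 20 and at least 74.1 in the others. How many members do so was not counted, and whether these columns share an embryo is not known. Leaving out single blastomeres therefore does not show what leaving out a whole embryo would change. For the low members, a median of 0 or a few fragments cannot be told from a missed transcript, and the part of depth was not tested.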
